A study of Mus musculus with 5 samples.

Results

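Expression of 7 lysosomal genes was examined, 4 that encode enzymes or enzyme activators of the lysosome's interior and 3 that encode proteins of its membrane. They are Ctsb, Ctsl and Ctsd (cathepsins B, L and D), Psap (prosaposin), Lamp1, Lamp2 and Cd63. The genes were chosen by name, as 7 of the 15597 genes with reads in the series, and each had reads in every plate. Single mouse cells were sorted 1 per well into 5 plates of 96 wells, and each well received its own 5′ barcode before the wells of a plate were pooled and amplified. Embryonic stem (ES) cells of the line R1, whose culture follows a protocol for stem cell-derived spheres, gave 3 plates. The neuroblastoma line Neuro2A gave 1 plate and fibroblasts of mouse embryos (MEF) gave 1, both grown in serum. The labels name no genotype change and no drug treatment, and no age or passage is given for any of the 3 cell types.

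Lysosomes are acidic vesicles that break down proteins, lipids and sugars delivered by endocytosis or autophagy. Cathepsins B and L are cysteine proteases and cathepsin D is an aspartic protease, and all are made as precursors that mature in the acidic lumen. Prosaposin is cut there into saposins, which present sphingolipids to their hydrolases. LAMP1 and LAMP2 are heavily glycosylated proteins of the limiting membrane, LAMP2 also serving autophagy, and CD63 is a tetraspanin of late endosomes, lysosomes and exosomes. Many lysosomal genes carry the E-box CACGTG near their start, the core of the site bound by TFEB and related MiT/TFE transcription factors.

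The promoters of 3 of these genes are shown because they bracket the range of that motif. Windows of 250 bases upstream of the RefSeq start (GRCm38.p6) were found for 6 of the 7 genes, Ctsb being the exception, with 7 windows in all since Psap had 2. The motif CACGTG, which is its own reverse complement, is in capitals, and each line gives the strand in brackets.

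Lamp1 chr8:13158911-13159160 (+): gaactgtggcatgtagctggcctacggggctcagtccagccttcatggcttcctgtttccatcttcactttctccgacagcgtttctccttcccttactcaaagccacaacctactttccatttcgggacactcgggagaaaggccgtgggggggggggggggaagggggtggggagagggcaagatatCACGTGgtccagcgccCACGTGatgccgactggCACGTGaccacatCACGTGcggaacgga
Ctsd chr7:142387828-142388077 (-): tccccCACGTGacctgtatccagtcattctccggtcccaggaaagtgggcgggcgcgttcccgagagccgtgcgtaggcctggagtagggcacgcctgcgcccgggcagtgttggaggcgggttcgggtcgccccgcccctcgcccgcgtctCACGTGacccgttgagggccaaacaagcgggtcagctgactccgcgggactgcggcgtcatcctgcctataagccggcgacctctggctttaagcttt
Cd63 chr10:128909095-128909344 (+): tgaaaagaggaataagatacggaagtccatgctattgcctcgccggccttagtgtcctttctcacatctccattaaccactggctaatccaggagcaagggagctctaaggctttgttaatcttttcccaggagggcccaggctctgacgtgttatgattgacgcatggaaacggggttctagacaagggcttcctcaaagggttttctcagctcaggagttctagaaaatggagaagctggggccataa

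The Lamp1 window held 4 copies, whose first bases lay 61, 45, 28 and 15 bases before the start. Of 32851 windows of all genes, 7 (0.0213%) held 4 or more. The Ctsd window held 2 copies, 245 and 98 bases before the start, and 0.429% of all windows held at least 2. The Ctsl window held 1 copy, 236 bases before the start, and the windows of Cd63, Lamp2 and Psap held none. The motif was thus in 3 of the 7 windows, in 19.2% of 120 windows of other lysosomal genes and in 6.02% of all windows. The longer form TCACGTG, every match of which contains CACGTG, was found, counting either strand, in the Lamp1 and Ctsd windows and in 3.13% of all windows. The full CLEAR element, a longer palindrome around the same core, was in 0 of the 7 windows and in 0.240% of all windows.

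Depth and purity of the plates bear on every value that follows. Gene reads per plate ranged from 277068 in ES replicate 2 to 11434036 in ES replicate 1, and 431 of 480 wells had at least 1000 gene reads and were kept. ES replicate 2 stood apart, with 82.4% of its reads on repeats, only 2520.5 gene reads in its median well and 25.9% of its gene reads in 1 well. All 5 plates used the same 96 barcodes, and the median gene specific to MEF had 10.8% of its MEF reads again in ES replicate 3. For genes specific to Neuro2A the same share in MEF was 9.45%. Of 11 ES marker names, 10 were read in each ES plate, and the name without reads was Dppa5a, listed beside Dppa5. Their summed level was 5240 to 10020 CPM (counts scaled to a common library size) in the ES plates, against 0.322 in Neuro2A and 2.53 in MEF. The summed level of 12 fibroblast markers was 39116 CPM in MEF and 1630 to 4422 CPM elsewhere, highest of these in ES replicate 3. Neuroblastoma markers summed to 2056 CPM in Neuro2A and 76.3 to 276 CPM elsewhere, but the catecholamine enzymes Th and Dbh had no reads. Of 15 marker names of macrophages, cells rich in lysosomes, 0 had reads in MEF and 1 in Neuro2A. In ES replicates 1, 2 and 3 the numbers with reads were 1, 6 and 2, at summed levels of 4.69, 69.7 and 24.2 CPM, and the defining markers Ptprc, Csf1r and Emr1 were at 0 in all plates. Primitive and visceral endoderm markers summed to 619 CPM in MEF from 4 of 11 markers and to at most 52.3 CPM elsewhere, with Sox17, Sox7, Foxa2 and Afp at 0. Their part in the levels below was not tested. Neuro2A and MEF have 1 plate each, so their cell type cannot be told apart from their plate, and separate cultures are not stated for the ES plates.

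The 7 genes together were highest in MEF. Their summed level was 1194, 1277 and 1935 CPM in ES replicates 1, 2 and 3, 1988 CPM in Neuro2A and 5748 CPM in MEF. These CPM are scaled with TMM factors, which adjust each library for its composition. The factor of MEF was 0.676, against 0.985 to 1.35 in the other plates. TMM scaling thus raises every fold of MEF over ES given below, compared with library size alone. The ES mean was 1469 ± 406 CPM (SD, n = 3), so that MEF stood 3.91-fold above it and Neuro2A 1.35-fold above it, the latter close to ES replicate 3. As a share of all gene reads, the genes took 0.129%, 0.168% and 0.198% in the ES plates, with Neuro2A at 0.196% and MEF at 0.388%. MEF was therefore highest on either scale, and Neuro2A was level with the highest ES plate, ES replicate 3. After subtraction of the reads estimated to be carried over between plates, the share was 0.164% in ES replicate 3 and 0.408% in MEF. Neuro2A was then above each ES plate, but by construction this subtraction lowers genes that are high in MEF. On the log2 scale the summed level in ES minus that in MEF was -1.97, and it was -1.01 without wells whose barcode ends in G. The same difference for Neuro2A minus MEF was -1.53, and -0.54 without those wells.

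**Figure D1:**
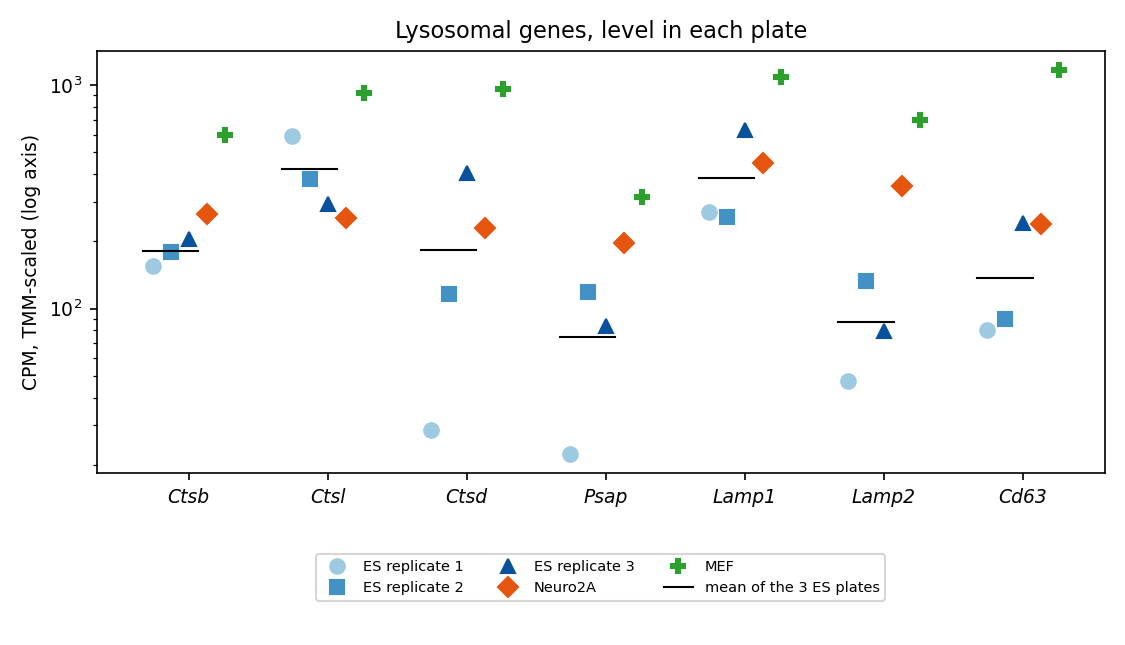
Level of each of the 7 genes in each of the 5 plates, in TMM-scaled CPM on a log axis, with a black line at the mean of the 3 ES plates. With this scaling MEF is the highest point for each gene, while Neuro2A lies inside the ES range for Ctsd, Lamp1 and Cd63.

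Among the cysteine proteases, Ctsb was the steadiest gene over the ES plates. Its level was 155.5, 180 and 205 CPM in ES replicates 1, 2 and 3, 266 CPM in Neuro2A and 600 CPM in MEF. The 3 groups thus did not overlap, in the order ES, Neuro2A, MEF, with MEF 3.33-fold above the ES mean of 180 ± 24.9 CPM (SD, n = 3). Of all genes tested, every ES plate was below Neuro2A for 28.1% and below MEF for 39.8%. The share of genes in this full order was not computed. Ctsl had 590, 380 and 295 CPM in the ES plates, 253 CPM in Neuro2A and 921 CPM in MEF. It alone of the 7 was higher in every ES plate than in Neuro2A, by 1.66-fold for the ES mean of 422 ± 152 CPM, and MEF was 2.19-fold above that mean. The SD of the ES plates nearly reached their difference from Neuro2A. With library size alone Ctsl had 638, 499 and 302 CPM in the ES plates and 622 CPM in MEF, which then lay inside the ES range.

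The aspartic protease gene Ctsd varied most between the ES plates. It had 28.6, 116 and 403 CPM in ES replicates 1, 2 and 3, a 14.1-fold range, 229 CPM in Neuro2A and 962 CPM in MEF. Neuro2A lay inside the ES range, and MEF was 5.27-fold above the ES mean of 183 ± 196 CPM (SD, n = 3). Psap had 22.4, 119 and 83.2 CPM in the ES plates, 198 CPM in Neuro2A and 315 CPM in MEF. Every ES plate was below Neuro2A and MEF, and MEF was 4.21-fold above the ES mean of 74.9 ± 48.9 CPM. ES replicate 1, the most deeply sequenced plate, was the lowest of the 5 for Ctsd and Psap, with 354 and 277 reads.

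Of the membrane proteins, Lamp1 overlapped between ES and Neuro2A and Lamp2 did not. Lamp1 had 271, 258 and 628 CPM in the ES plates, 449 CPM in Neuro2A and 1083 CPM in MEF, 2.81-fold above the ES mean of 386 ± 210 CPM (SD, n = 3). Lamp2 had 47.3, 134 and 79.6 CPM in the ES plates, 355 CPM in Neuro2A and 697 CPM in MEF. MEF was 8.03-fold and Neuro2A 4.09-fold above the ES mean of 86.8 ± 43.6 CPM for Lamp2, with every ES plate below both. Cd63 had 80.3, 90.0 and 241 CPM in the ES plates, 238 CPM in Neuro2A and 1170 CPM in MEF. Its fold in MEF was 8.53 over the ES mean of 137 ± 90.3 CPM, while Neuro2A was level with ES replicate 3. Subtracting the share of MEF reads found in ES replicate 3 removed 86.2% of the Lamp2 reads of that plate, which fell from 174 to 24, and 47.5% of its Cd63 reads, from 528 to 277. For the other 5 genes the subtraction removed 16.9% (Lamp1) to 37.4% (Psap). By construction it lowers genes that are high in MEF.

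The make-up of these reads also differed between plates. Ctsl gave 49.4%, 29.8% and 15.2% of the reads of the 7 genes in ES replicates 1, 2 and 3, with Neuro2A at 12.7% and MEF at 16.0%. For each Cd63 read there were 7.34, 4.23 and 1.22 Ctsl reads in the ES plates, with Neuro2A at 1.06 and MEF at 0.787. The ES plates were above the other plates in this ratio, but they spread widely among themselves. For each Ctsd read there were 20.6, 3.28 and 0.731 Ctsl reads in the ES plates, with Neuro2A at 1.11 and MEF at 0.958, so that here ES replicate 3 was the lowest of the 5. Cd63 gave 20.4% of the reads in MEF and 6.72% to 12.5% in the other plates, and Lamp2 gave 17.9% in Neuro2A, 12.1% in MEF and 3.96% to 10.5% in the ES plates. Ctsb stayed between 10.4% and 14.1% in all 5 plates.

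**Figure D2:**
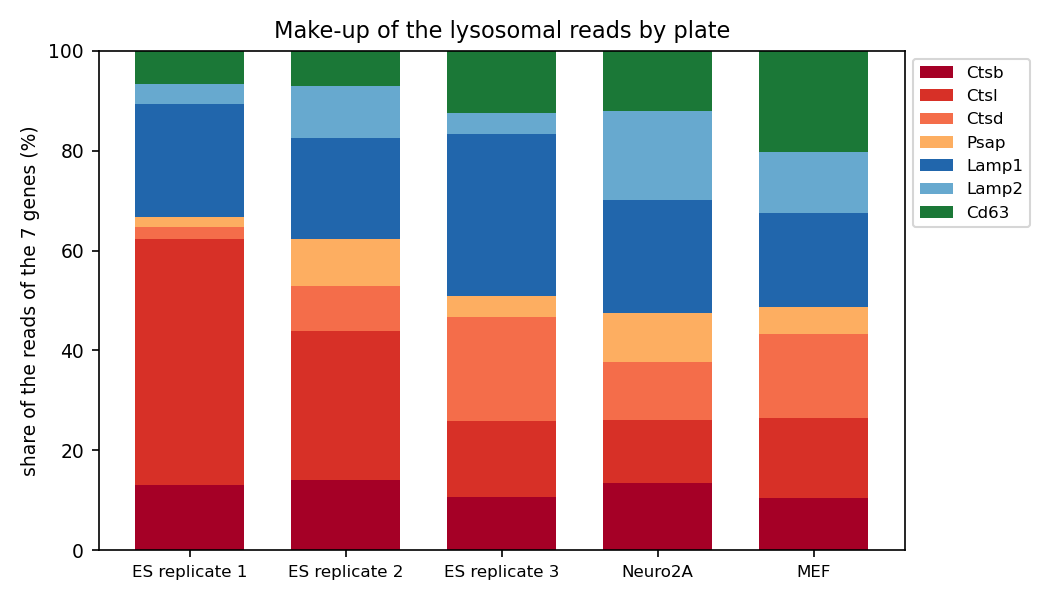
Share of the reads of the 7 genes, in percent, taken by each gene in each plate. The Ctsl share runs from 12.7% in Neuro2A to 49.4% in ES replicate 1, and the Cd63 share is highest in MEF at 20.4%.

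Against MEF, every ES plate was below the MEF plate for 7 of the 7 genes, as it was for 39.8% of the 12271 genes tested. With library size alone this held for 6 of the 7 and 28.5% of genes, since Ctsl in ES replicate 1 (638 CPM) was then above MEF (622 CPM). All 7 passed the filter on low counts. edgeR's quasi-likelihood test with Benjamini-Hochberg adjustment called 0 of the 7, and 0% of all genes, at an adjusted p under 0.05, which at the spread of these plates says nothing of whether a difference is absent. In it the only spread comes from the ES plates, 2 residual degrees of freedom with a biological coefficient of variation of 122%, and the lone plates are assumed to vary alike. edgeR also shares spread across genes, so its p-values rest on more than these 2 degrees of freedom. At an unadjusted p under 0.05, Ctsb, Lamp2 and Cd63 were lower in ES, 3 of 7 against 4.17% of all genes. The log2 fold change of Cd63 was -3.09 ± 0.80 (SE), with an adjusted p of 0.493 from edgeR. Each edgeR SE here was derived from the test, as the absolute log2 fold change over the square root of its F statistic. DESeq2 called Cd63 alone of the 7, at -2.97 ± 0.97 with an adjusted p of 0.0386, where it called 1.16% of genes lower and 5.37% higher in ES. Lamp2 was at -3.02 ± 0.75 (edgeR adjusted p = 0.493) and Ctsb at -1.73 ± 0.62 (edgeR adjusted p = 0.556). The other log2 fold changes were -2.39 ± 1.24 for Ctsd, -2.09 ± 0.97 for Psap, -1.49 ± 0.75 for Lamp1 and -1.13 ± 0.68 for Ctsl, none past either threshold. Without ES replicate 1 edgeR called 645 of 11762 genes, 432 of them lower in ES, and 0 of the 7. For 7 genes a count of 0 is near that background. Cd63 was then at -2.79 with an edgeR adjusted p of 0.0562. With 1 ES plate left out at a time, Cd63 ran from -3.42 to -2.33, Lamp2 from -2.91 to -2.59 and Ctsb from -1.62 to -1.18. Ctsd ran from -3.38 (without ES replicate 3) to -1.65 (without ES replicate 2), and Psap from -2.06 to -1.63. Without ES replicate 2, Lamp1 was at -0.73 and Ctsl at -0.48, the values nearest to 0. The median of the 7 was -2.09, beside -0.080 over all genes tested. Scaling by library size alone moved the median of all genes to 0.67 and that of the 7 to -1.27. Relative to the median gene the 7 were at -2.01 with TMM and at -1.94 with library size alone, and each of the 7 lay below the median gene under all 10 alternatives.

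Against Neuro2A, whose comparison uses the same ES plates, the genes did not all lie on the same side of 0. Every ES plate was lower for 3 of the 7, Ctsb, Lamp2 and Psap, where 28.1% of all genes were, and higher for Ctsl, where 28.8% were. edgeR called 0 of 7 and 0% of all genes, and DESeq2 called 0 of 7 while calling 1.78% of genes lower in ES and 11.8% higher. At an unadjusted p under 0.05 Lamp2 was the single gene, with 4.05% of all genes lower at that level. Its log2 fold change was -2.05 ± 0.76 (SE, edgeR adjusted p = 0.377), and -2.43 without ES replicate 2. Without ES replicate 1 edgeR called 1438 of 11762 genes, 422 of them lower in ES, and 0 of the 7, again near the background for 7 genes. The others were -1.42 ± 0.99 for Psap, -0.79 ± 0.85 for Cd63, -0.56 ± 0.65 for Ctsb, -0.32 ± 1.33 for Ctsd, -0.22 ± 0.80 for Lamp1 and 0.74 ± 0.75 for Ctsl, and all but Psap were within 1 SE of 0. With 1 ES plate left out, Ctsd ran from -1.61 to 0.20, Lamp1 from -0.71 to 0.045, Cd63 from -1.43 to -0.50, Psap from -1.88 to -0.96 and Ctsl from 0.43 to 0.98. The median of the 7 was -0.56, beside 0.91 over all genes. Each of the 7 lay below that median, from -2.95 relative to it for Lamp2 to -0.17 for Ctsl, whose own value was higher in ES. The median of all genes itself moved with the processing, from 0.30 without ES replicate 3 to 1.76 with no filter on low counts. Among the alternatives only Ctsl rose above the median gene, at 0.024 without ES replicate 2 and 0.68 without ES replicate 3.

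**Figure D3:**
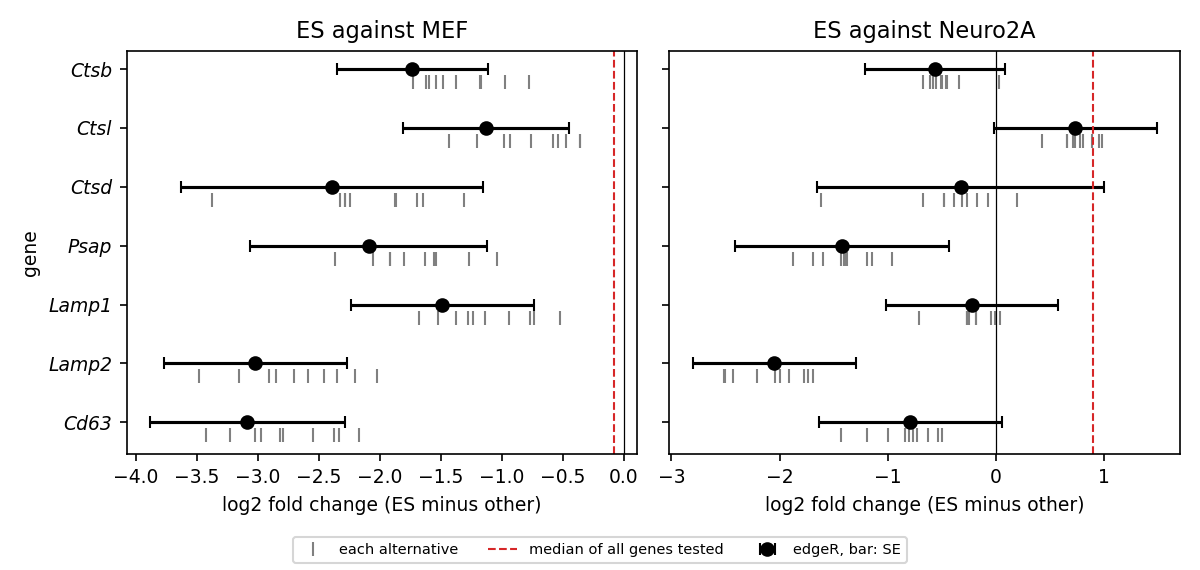
Log2 fold change of each gene in ES against MEF and against Neuro2A from edgeR (points, bars are SE derived from the test's F statistic). A grey tick marks each alternative way of processing, and a dashed line marks the median of all genes tested. Against MEF every point and tick is below 0, while against Neuro2A only Lamp2, Psap and Cd63 have all ticks below 0.

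Between the 2 lone plates each gene was higher in MEF than in Neuro2A, as were 56% of genes, and 5 of the 7 were so by at least 2-fold, beside 43.5% of genes. With library size alone each gene was still higher in MEF, as were 48.8% of genes, but 3 of the 7 by at least 2-fold (Ctsd, Ctsl and Cd63), beside 38.1% of genes, and Psap was at 1.09-fold. With TMM scaling the ratio of MEF to Neuro2A was 4.91 for Cd63 (95% counting interval 4.52 to 5.34), 4.20 for Ctsd (3.85 to 4.58) and 3.64 for Ctsl (3.34 to 3.96). It was 2.41 for Lamp1, 2.26 for Ctsb, 1.96 for Lamp2 and 1.59 for Psap. These intervals treat each read as an independent draw, although amplified copies of a molecule are counted again, so they are too narrow. In Neuro2A, for instance, 1 well held 39.9% of the Ctsd reads. The binomial intervals below count wells, and neither kind covers spread between plates. With 1 plate each there is no replicate check, and no test was made.

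With depth made equal, single MEF wells most often held reads of these genes, and Neuro2A lay inside the ES range. After thinning each kept well to 1000 gene reads, at least 1 read of the 7 genes was found in 37.6%, 66.7% and 77.7% of wells in the respective ES replicates, 54.7% of Neuro2A wells and 82.6% of MEF wells. With all reads these shares were 81.7%, 78.8%, 94.7%, 89.5% and 95.7%. Reads of 3 or more of the 7 genes were found in 31.5% of thinned MEF wells, against 0% of 93, 10.6% of 66 and 4.26% of 94 wells in the ES plates and 4.65% of Neuro2A wells. With all reads, 24 of 92 MEF wells held all 7 genes, against 3, 4 and 2 wells of the ES plates and 10 of 86 Neuro2A wells. The median MEF well had 12749 gene reads, fewer than the 26278 of Neuro2A and the 101130 of ES replicate 1.

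Cd63 had the widest gap between the MEF wells and those of the next plate. It was read in 41.3% of thinned MEF wells (exact 95% binomial interval 31.1% to 52.1%), in 2.15%, 13.6% and 20.2% of ES wells and in 12.8% of Neuro2A wells. Its unthinned shares were 71.7% in MEF and 34.4% in ES replicate 1. The 20.2% of ES replicate 3 became 10.6% after the subtraction of MEF reads, for which the wells were thinned anew. In that plate the shares of Ctsl, Lamp1 and Lamp2 also fell. Those of Ctsb, Ctsd and Psap rose although reads were removed, for Ctsd from 19.1% to 24.5%, so single shares shift with the draw. Ctsd was read in 27.2% of thinned MEF wells, 13.6% and 19.1% of wells of ES replicates 2 and 3, 5.81% of Neuro2A wells and 0 of 93 wells of ES replicate 1, which allows a share of wells with a read of up to 3.23% by the limit of 3 wells and 3.89% by the exact binomial bound. In that plate 22.6% of wells had a Ctsd read unthinned. Ctsl was read in 19.4%, 27.3% and 21.3% of ES wells, a narrower range than for Lamp1 (16.1% to 36.2%), and in 9.30% of Neuro2A and 33.7% of MEF wells. Its unthinned shares in ES were 60.2%, 47.0% and 69.1%.

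**Figure D4:**
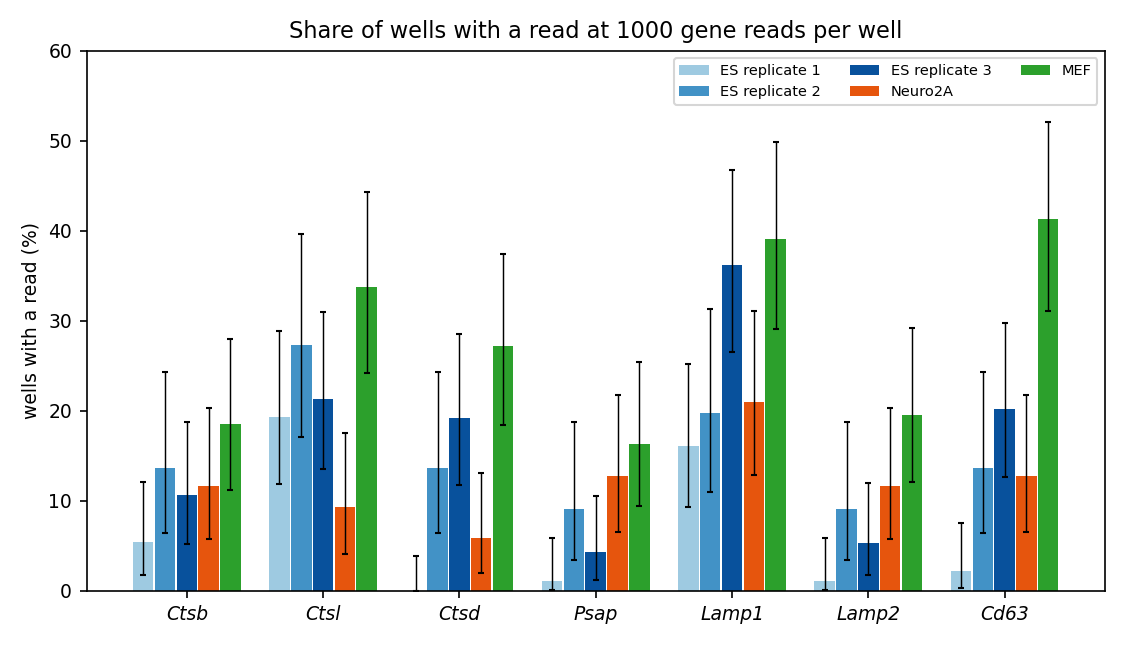
Percent of wells with at least 1 read of each gene after every kept well was thinned to 1000 gene reads, by plate, with exact 95% binomial intervals. MEF has the tallest bar for each gene, and the ES bars of Ctsl are taller than the Neuro2A bar.

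How many wells carried the reads differed between plates. In ES replicate 1, 1 well held 556 of the 585 Lamp2 reads (95.0%) and 1 well held 50.2% of the Psap reads, whereas the top 7 wells were needed to reach 50% of the Ctsl reads. In ES replicate 2, its deepest well held 67.4% of the Lamp2 reads and 51.2% of the Psap reads, on plate totals of 46 and 41 reads. In Neuro2A, 1 well held 39.9% of the Ctsd reads and 1 held 32.6% of the Lamp1 reads. In MEF the top well of each gene held 7.58% (Ctsb) to 18.1% (Psap), and the top 4 to 9 wells were needed to reach 50% of the reads. ES replicate 3 was spread as widely, with top wells at 6.92% to 20.1% and the top 4 to 12 wells needed for 50%. Over 92 thinned MEF wells, Pearson's r between pairs of the 7 genes ran from -0.13 to 0.28, with a median of 0.029. At that depth a MEF well held on average 0.28 (Ctsb) to 0.83 (Lamp1) reads of a gene. With so few reads, values near 0 do not show whether the genes vary together between cells, and wells share their plate's amplification.

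Summed reads of the 7 genes in ES replicate 3 followed those in MEF wells of the same barcode. Pearson's r of the log2 reads was 0.63 over 96 barcodes, beside 0.048 for ES replicate 1 with MEF, 0.19 for ES replicate 2 with MEF and 0.24 for Neuro2A with MEF. For all gene reads the first of these was 0.59, so that the likeness was not limited to the 7 genes. After subtraction the genes kept 2999 of 4233 reads in ES replicate 3 and 10797 of 11380 in MEF.

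**Figure D5:**
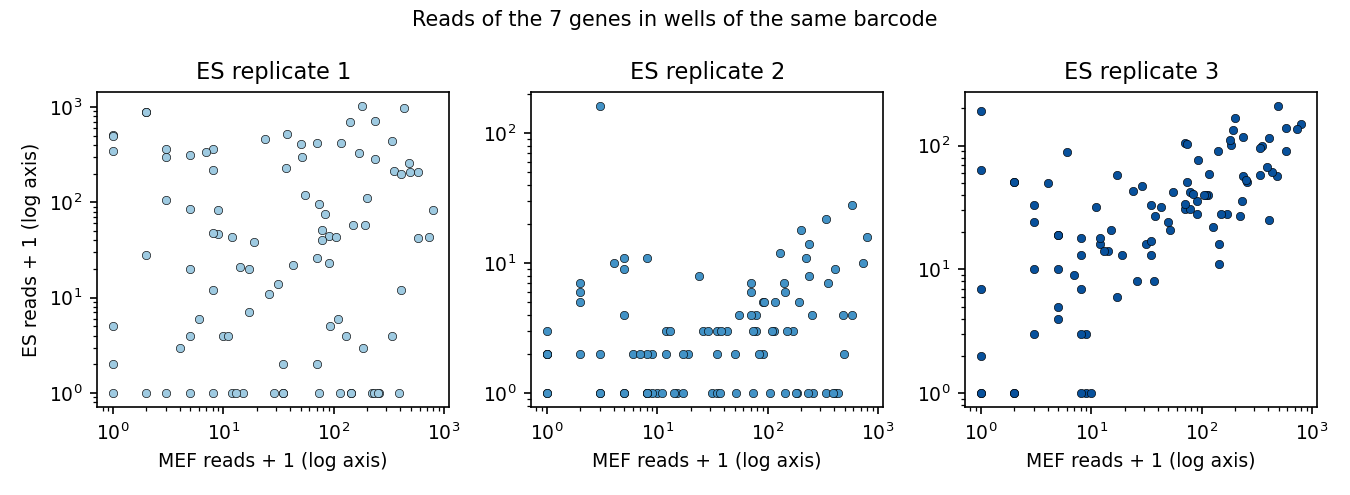
Summed reads of the 7 genes plus 1, on log axes, in each ES plate against the MEF well of the same barcode, 1 point for each of 96 barcodes. The points rise together for ES replicate 3 (r = 0.63) and not for ES replicate 1 (r = 0.048).

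Other genes of the lysosome and of its supply and control were taken as a list of 115 with reads, of which 106 were tested. Besides hydrolases, membrane proteins and the vacuolar proton pump, the list holds sorting genes, cathepsin inhibitors, MiT/TFE factors, nutrient-sensing genes and several tetraspanins. Its sums and shares are therefore not of lysosomal proteins alone. Their summed level was 8472 ± 735 CPM in ES (SD, n = 3), 8089 CPM in Neuro2A and 15730 CPM in MEF. Against MEF edgeR called 0 of 106 after adjustment, and 2 higher (1.89%) and 6 lower in ES (5.66%) at an unadjusted p under 0.05. Over all genes these shares were 4.21% and 4.17%, so the list was near the background. DESeq2 called 2 higher, Manba (beta-mannosidase) and Laptm5 (a lysosomal membrane protein), and 0 lower. Over all genes DESeq2 called 5.37% higher and 1.16% lower. The 6 lower at an unadjusted edgeR p under 0.05 were Hexa (a subunit of beta-hexosaminidase), Cd164 (a sialomucin), Igf2r, Atp6v0b, Atp6ap1 and Cst3. Atp6v0b and Atp6ap1 encode a subunit and an accessory protein of the vacuolar proton pump. The list's median log2 fold change was -0.46, beside -0.080 over all genes and -2.09 for the 7. Every ES plate was below MEF for 50 of the 106 (47.2%), near the 39.8% of all genes.

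Against Neuro2A 10 of the 106 were higher (9.43%) and 3 lower in ES (2.83%) at an unadjusted edgeR p under 0.05, near the 8.38% and 4.05% of all genes. After adjustment edgeR called 0. DESeq2 called 8 higher and 2 lower, where it called 11.8% of all genes higher and 1.78% lower. The list's median was 1.02, beside 0.91 over all genes. Lower in ES at that unadjusted level were Lgmn (legumain, an asparaginyl protease that processes cathepsins), Cd151 (a tetraspanin) and the proton pump subunit Atp6v1b2. Lgmn had 155, 49.3 and 53.0 CPM in the ES plates, 701 CPM in Neuro2A and 249 CPM in MEF (edgeR adjusted p = 0.318 against Neuro2A). Ids (iduronate sulfatase) had 161, 61.0 and 90.5 CPM in the ES plates, 120 CPM in MEF and 0 reads in Neuro2A. The ES mean was thus at least 108-fold higher than Neuro2A, with 3 reads as the floor. Log2 fold changes against Neuro2A were 2.40 for Npc2 (a carrier of cholesterol), 2.29 for Cd81 (a tetraspanin) and 2.11 for the proton pump subunit Atp6v1d. They were -4.19 for Cd151, -4.28 ± 2.79 (SE) for the cathepsin gene Ctso and -1.76 for Laptm4b. Neither Ctso, with 0, 8 and 1 reads in the ES plates, nor Laptm4b passed an unadjusted edgeR p of 0.05. Among genes with at least 100 CPM in the higher group and all ES plates on 1 side of MEF, the largest changes did not pass an unadjusted p of 0.05, apart from Igf2r at -3.01. Below MEF these were Aga (aspartylglucosaminidase) at -5.08 ± 2.59 (SE) and Hgsnat (an acetyltransferase of heparan sulfate breakdown) at -4.74 ± 2.66. Sidt2 was at -3.63 ± 2.31 and Ctsa (cathepsin A) at -3.14 ± 1.34. In ES replicates 1, 2 and 3, Aga had 0, 0 and 26 reads, Hgsnat 0, 0 and 30, and Sidt2 0, 7 and 76. The sizes of these 3 folds are thus poorly set, and reads carried over from MEF into ES replicate 3 were not assessed for them. Above MEF 4 genes met those terms, at 1.40 for the sorting adaptor Gga2, 0.88 for Atp6v1a, 0.34 for Atp6v1d and 0.25 for Vps35 of the retromer.

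The pathway also has a sorting receptor, inhibitors and transcription factors. Igf2r encodes the cation-independent mannose 6-phosphate receptor, which carries newly made hydrolases to endosomes. It had 58.7, 52.3 and 166 CPM in the ES plates, 3.86 CPM in Neuro2A and 750 CPM in MEF, so that the 3 groups did not overlap. Of all genes tested, every ES plate was above Neuro2A for 28.8% and below MEF for 39.8%. The share with both was not computed. Cst3, the secreted inhibitor cystatin C, had 89.1, 186 and 136 CPM in the ES plates, 208 CPM in Neuro2A and 506 CPM in MEF. With TMM scaling that is the order ES, Neuro2A, MEF, but with library size alone ES replicate 2 (244 CPM) was above Neuro2A (204 CPM). Cstb, the cytosolic inhibitor, had 417, 392 and 892 CPM in the ES plates, 263 CPM in Neuro2A and 605 CPM in MEF, and Csta had 1 read. The factor that binds the motif shown above, Tcfeb (Tfeb), had 48.5, 8.71 and 16.0 CPM in the ES plates, the second from 3 reads, and 0 reads in Neuro2A and MEF. The ES mean was at least 16.1-fold higher than MEF, with an adjusted p of 0.589 from edgeR. Its relative Tcfe3 had 21.6, 40.6 and 95.6 CPM in the ES plates, 3.03 CPM from 6 reads in MEF and 0 reads in Neuro2A, at least 54.5-fold below the ES mean. Mitf had reads in Neuro2A alone, 3 in number. Tcfeb and Tcfe3 were thus read mostly in the ES plates.

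Transcripts with the plate pattern most like the summed level were sought among 2603 genes. The closest in log2 level over the 5 plates was Lsmd1, at a root mean square difference of 0.119, followed by Hsp90b1 (an endoplasmic reticulum chaperone, 0.133), Snd1 (0.159), Rab2 (0.171) and Ppib (an endoplasmic reticulum prolyl isomerase, 0.188). Hsp90b1 had 439, 392 and 667 CPM in the ES plates, 797 CPM in Neuro2A and 2192 CPM in MEF.

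Some reads could belong to neighbours or copies. In GENCODE M21, Ctsb overlaps Fdft1 and Lamp1 overlaps Grtp1, each on the opposite strand, and no source used here says whether the counting used strand. Fdft1 had 92.7, 23.2 and 54.9 CPM in the ES plates, 0.644 CPM in Neuro2A and 13.1 CPM in MEF, and Grtp1 had 43.0 to 78.4 CPM in the ES plates and 0 reads in both others. Ctsd shares sequence with the overlapping model Gm49369, Ctsl with the antisense Gm47123 and the pseudogene Gm49230, and Cd63 with Cd63-ps at 98.5% identity over 812 bases. None of these 4 is named in the count files, so values of Ctsd, Ctsl and Cd63 may include their reads.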

How the data were processed

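Raw read counts per gene and well were deposited by the authors for 5 plates of 96 wells. The submitters' processing notes name Bowtie. Its version, the build and the gene annotation behind the counts were not given in the sources used here. No molecular identifiers are named. Repeats and mitochondrial genes were left out, a missing gene row counted as 0 reads, and kept wells had 1000 gene reads or more. Reads were summed over the wells of a plate, since cells of a plate are not replicates, and the 5 sums were fitted with edgeR 4.0.16 (glmQLFit, glmQLFTest, TMM, filterByExpr, Benjamini-Hochberg at 0.05), with DESeq2 1.42.0 as an alternative. On data simulated with known changes, the fit recovered them at a low spread, but at the spread of the ES plates it made no calls even of large changes. All p-values rest on spread between ES plates alone, which may be technical. Where a plate had 0 reads, 3 reads per library served as the floor of a fold.

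Wells were thinned to 1000 reads with a fixed seed. Reads carried over between plates were estimated from genes with at least 100 CPM in the source and at least 10 times the level of every plate other than the target, and subtracted in an alternative, which lowers genes of the source by construction. Other lysosomal genes were named as the 5 largest log2 fold changes each way at 100 CPM or more with all 3 ES plates on 1 side, plus MiT/TFE factors and inhibitors. Genes outside this rule, such as Laptm5, were named after their values were seen. Genes like the summed level are the 5 closest in centred log2(CPM + 1). The 7 genes, the lists and the tests were chosen with earlier results of these data known. Promoter windows came from RefSeq, GRCm38.p6. Sequence identity used blastn 2.17.0, with at least 300 bases.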

Additional observations from a re-analysis of the deposited data

How the results depend on the processing

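Direction held in ES against MEF for each of the 7 genes under all 10 alternatives. Against Neuro2A it turned for 3 genes that had not passed the test: Ctsb to 0.031 without wells whose barcode ends in G, Ctsd to 0.20 without ES replicate 1 (range -1.61 to 0.20 with 1 ES plate left out) and Lamp1 to 0.045 without ES replicate 2 (-0.71 to 0.045). The cause was not tested. Calls against MEF rose from 0 genes to 506 with DESeq2 and 9 with no filter, and to 0 to 645 with 1 ES plate left out, the highest without replicate 1. Calls among the 7 went from 0 to 1 with DESeq2, and among other lysosomal genes from 0 to 2 with DESeq2 and to 0 to 2 with a plate left out. Calls against Neuro2A went from 0 to 1249 with DESeq2, 82 with no filter and 0 to 1438 with a plate left out, and among other lysosomal genes to 10 with DESeq2 and 0 to 8 with a plate left out. Fits without a plate had 1 residual degree of freedom and were not simulated. Their p-values and calls also rest on spread shared across genes, most of all without ES replicate 1.

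The summed log2 level in ES minus MEF was -1.97. It became -1.32 with the mean of the CPM of single wells, -1.22 with library size alone and -1.01 without wells whose barcode ends in G. Leaving out 1 plate at a time or the deepest well of ES replicate 2, it ran from -2.02 (without that well) to -1.33 (without ES replicate 2). For Neuro2A minus MEF, -1.53 became -0.94, -0.99 and -0.54 under the same 3, -1.23 with a minimum of 5000 reads per well and -1.24 after subtraction. The G-well setting and the removal of the deepest well of ES replicate 2 were added after seeing the data. No paired analysis was possible because ES alone has more than 1 plate, so the groups share fewer than 2 replicate numbers. Of 70 shares of wells recomputed, 34 moved by more than their interval, nearly all with unthinned reads. ES replicate 2 had 31 to 131 reads per gene.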

Other observations

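Within the MEF plate, genes read in most thinned wells were ranked by Pearson's r with the summed reads of the 7 lysosomal genes over 92 wells. The first 5 of 77 genes were Rps3 (0.315), Cox6c (0.306), Calu (0.251), 2310028O11Rik (0.177) and Nedd4 (0.173). These are weak values from wells that share 1 library and its depth, and no test was made. Laptm5, a lysosomal membrane protein best known from blood cells and named here after its values were seen, had 65.7, 55.2 and 118 CPM in ES replicates 1, 2 and 3. It had 0 reads in Neuro2A and MEF, so the ES mean was at least 82.4-fold and at least 52.5-fold higher (floor of 3 reads per library). Its edgeR adjusted p was 0.253 against Neuro2A and 0.472 against MEF.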
